A study of Mus musculus with 10 samples.

Results

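The 9 genes described here encode proteins of the piRNA pathway: Piwil2, Piwil4, Mov10l1, Asz1, Fkbp6, Mael, Tdrd1, Tdrd5 and Tdrd9. They were taken by gene symbol from a table of 24470 gene entries, and 9 of 9 were found. RNA was measured in 10 cultured testes of 5 C57BL/6 mouse embryos at E12.5, called mouse 1 to mouse 5. From each embryo, the gonad of one side was cultured with 75 µM CP 316819, a glycogen phosphorylase inhibitor (GPI), and the gonad of the other side with the vehicle, DMSO. Gonads were cultured for 48 h with the mesonephros attached and dissected away from it before RNA extraction. Each gonad gave 1 library, and the 5 GPI and 5 vehicle libraries are paired by mouse. The inhibitor was added to the medium of the whole gonad and was not aimed at a single cell type, and each library holds the RNA of the whole organ. The libraries held between 10203679 and 15635322 counts.

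PIWI-interacting RNAs (piRNAs) are short RNAs of germ cells that guide PIWI proteins to transposon transcripts. In the fetal testis they are made from long precursor transcripts in granules next to mitochondria, where Tudor domain proteins bind methylated arginines of PIWI proteins. Some PIWI proteins cut transposon RNA, and others enter the nucleus, where they direct DNA methylation of transposons in prospermatogonia. Male mice that lack such genes are typically sterile, and transposons are expressed in their germ cells.

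The tissue label was checked against markers. Sox9, the transcription factor of Sertoli cells, had 881 to 1734 counts with vehicle and 1335 to 2390 with GPI. Foxl2, which marks pre-granulosa cells of the ovary, had 15 to 49 and 10 to 29 counts. Germ cells, in which the piRNA pathway works, were present in the vehicle libraries by the RNA-binding protein gene Dazl (333 to 813 counts) and the helicase gene Ddx4 (149 to 348 counts). Pax8, a marker of mesonephric tubules, was found in all 10 libraries, with 70 to 361 counts with vehicle and 76 to 214 with GPI. The mesonephric genes Pax2, Lhx1 and Cdh16 were not found in every library. Pax2 had 0 to 26 counts with vehicle and 1 to 36 with GPI, Lhx1 1 to 14 and 0 to 3, and Cdh16 0 to 102 and 0 to 26.

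Promoters of 8 of the 9 members were found in the RefSeq promoter table (build GRCm38.p6), in windows from 250 bases before to 50 bases after the start site; Piwil2 had no match. The windows were searched on both strands for the E-box CACGTG, the E2F-like motif GGCGGGA and the TATA motif TATAAA. The E-box was found in 5 of the 8 promoters, against 8.19% of all 18204 promoters in the table. A match describes the letters of the window and not a bound site. Each occurrence is shown in a stretch of 60 bases on the strand of the gene, with CACGTG in capitals. From top to bottom the stretches lie at chr1:166238935-166238994 (minus strand), chr19:56826171-56826230 (plus), chr12:111971367-111971426 (plus), chr12:111971437-111971496 (plus), chr15:88982744-88982803 (plus), chr5:135350113-135350172 (minus) and chr5:135350049-135350108 (minus).
Mael: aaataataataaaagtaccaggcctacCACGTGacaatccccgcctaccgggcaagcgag
Tdrd1: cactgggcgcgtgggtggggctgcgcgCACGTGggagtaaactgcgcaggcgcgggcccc
Tdrd9, far site: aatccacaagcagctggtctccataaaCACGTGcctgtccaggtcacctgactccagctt
Tdrd9, near site: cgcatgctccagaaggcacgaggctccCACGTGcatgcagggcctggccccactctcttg
Mov10l1: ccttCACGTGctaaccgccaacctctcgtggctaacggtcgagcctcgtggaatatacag
Fkbp6, far site: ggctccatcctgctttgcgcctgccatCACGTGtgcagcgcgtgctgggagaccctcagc
Fkbp6, near site: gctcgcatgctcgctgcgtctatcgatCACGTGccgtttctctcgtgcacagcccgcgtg

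The motif of Tdrd1 began at position -11 from the start site, those of Fkbp6 at -37 and -101, and those of Tdrd9 at -95 and -165. The motifs of Mael (-223) and Mov10l1 (-246) lay near the far end of the window. The windows of Piwil4, Tdrd5 and Asz1 held none. For Tdrd5 and Piwil4 the RefSeq start site lies 258 and 61 bases from the start of the entry in the count table, and other start sites were not searched. GGCGGGA was found in 1 of 8 promoters, that of Mael, where it began at positions -143 and 10, and in 15% of all promoters. TATAAA was found in 1 of 8, that of Piwil4, and in 13% of all promoters. The members' windows held between 10 CpG dinucleotides (Tdrd9) and 48 (Tdrd5), and the quartiles over all promoters were 4 and 24. In the fit without the low-count filter, Mael, Mov10l1, Fkbp6 and Tdrd1 of the 5 members with CACGTG were called lower and Tdrd9 was not, and of the 3 without it Tdrd5 and Asz1 were called lower and Piwil4 was not; no support is drawn from these few genes. Among tested genes other than the members, 97 of 1107 with CACGTG in the window (8.76%) were called lower with GPI, and 1149 of 9886 without it (11.6%).

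**Figure D1:**
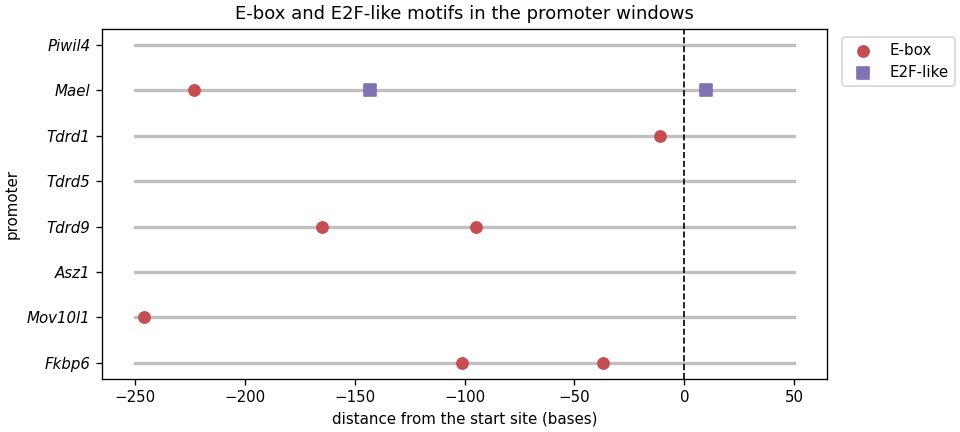
Positions of CACGTG (E-box, circles) and GGCGGGA (E2F-like, squares) in the promoter windows of 8 members, in bases from the start site (dashed line); each grey line is a window from 250 bases before to 50 bases after it. The circles lie on 5 promoters, and those of Tdrd9 and Fkbp6 have 2 each.

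Of the 9 members, 6 passed the filter on low counts, and 6 of these 6 were lower with GPI in edgeR's quasi-likelihood test (Benjamini-Hochberg adjustment over all genes tested, FDR 0.05). Of all 13941 genes tested, 11.9% were called lower and 22.9% in either direction. The filter asked for about 10 counts in 5 libraries. Piwil2, Mael and Mov10l1 reached 10 counts in no GPI library, so they passed through the vehicle libraries alone and had to differ, and no support is drawn from their number. Fkbp6 reached 10 counts in 1 GPI library, Tdrd5 in 3 and Tdrd1 in 5. Without the filter, 7 of the 9 members were called lower, against 9.28% of 20287 genes. The GPI libraries lay below all vehicle libraries, in normalised counts, for 5 of the 9 members and for 6.91% of the 20287 genes. In RNA of a whole gonad, fewer germ cells and less of these RNAs per germ cell cannot be told apart.

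The PIWI proteins come first. Piwil2 (Entrez Gene 57746, chr14:70372480-70429094, mm10) encodes MILI, the cytoplasmic PIWI protein that cuts transposon RNA in fetal germ cells. It had 17, 28, 14, 34 and 37 counts in the vehicle libraries of mice 1 to 5. In the GPI libraries of the same mice it had 9, 3, 0, 4 and 1. Every GPI library lay below every vehicle library, and mouse 1, with the highest GPI count, had the smallest difference. Normalised counts, scaled by edgeR's TMM factors to the mean library size, were 26.0 ± 8.38 with vehicle and 3.56 ± 3.97 with GPI (SD, n = 5). The log2 fold change was -3.03 ± 0.61 (standard error, SE, adjusted p = 0.00231), and the GPI libraries together held 12.8% of the scaled vehicle sum (exact 95% interval 7.25% to 21.4%). Without mouse 1 the log2 fold change was -3.87. Intervals of this kind cover counting error only, and reads of amplified libraries are not independent molecules.

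Piwil4 (Entrez Gene 330890, chr9:14702358-14740733) encodes MIWI2, the PIWI protein that enters the nucleus of prospermatogonia. It was near the limit of detection, with 0, 3, 6, 8 and 8 counts in the vehicle libraries. The GPI libraries held 0, 1, 0, 0 and 0. The groups overlapped, because the vehicle library of mouse 1 held 0 counts, at or below every GPI library. The sums were 25 and 1, which leaves 3.93% of the scaled vehicle sum with an interval of 0.0956% to 24.0%. Piwil4 did not pass the filter, and in the fit without it the log2 fold change of -4.0 (standard error 1.57) missed the threshold (edgeR, adjusted p = 0.0801). Without the replicate block the adjusted p was 0.0197, with limma-voom it was 0.013, and over all alternatives it ran from 0.013 to 0.262. Without mouse 2, which gave the only GPI count, the other GPI libraries held 0 counts. The fitted log2 fold change was then -5.38 and was not called, and its size cannot be measured against 0 counts.

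The next 4 members act in the making and loading of piRNAs. Mov10l1 (Entrez Gene 83456, chr15:88982994-89055152) encodes the RNA helicase that binds piRNA precursors. The vehicle libraries held 28, 66, 21, 53 and 28 counts. The GPI libraries held 3, 4, 0, 0 and 0. No GPI library came near the lowest vehicle library, and 3 of 5 were at 0. Mean normalised counts were 41.5 ± 24.3 with vehicle and 1.32 ± 1.81 with GPI (SD, n = 5), a log2 fold change of -4.92 ± 0.62 (SE, adjusted p = 5.77e-05). Without mouse 1 the log2 fold change was -5.62. Of the 13941 genes tested, 7.76% had a lower mean level.

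Asz1 (Entrez Gene 74068, chr6:18050964-18109061) encodes GASZ, an ankyrin repeat protein on the outer membrane of mitochondria that holds piRNA granules together. Its vehicle counts were 17, 25, 19, 39 and 8. With GPI they were 3, 1, 0, 0 and 0. All GPI libraries lay below all vehicle libraries, the lowest of which was that of mouse 5. Because only 4 libraries, all with vehicle, reached 10 counts, Asz1 did not pass the filter. In the fit without it the log2 fold change was -4.73 (standard error 0.82, edgeR, adjusted p = 2.98e-05), and 3.63% of the scaled vehicle sum was left (0.973% to 9.58%). Without mouse 1, whose GPI library held 3 of the 4 counts, the log2 fold change was -6.13.

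Fkbp6 (Entrez Gene 94244, chr5:135291704-135350044) encodes a co-chaperone that acts when PIWI proteins are loaded. It had 12, 69, 29, 49 and 61 counts with vehicle. It had 6, 32, 2, 6 and 5 with GPI. The groups overlapped: mouse 2 was highest in both, and its GPI library lay above the vehicle library of mouse 1. Within each mouse, however, the GPI gonad was lower, in 5 of 5. The log2 fold change was -2.40 ± 0.43 (SE, adjusted p = 0.00105), and normalised counts were 44.7 ± 25.4 and 9.26 ± 9.52 (SD, n = 5).

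Mael (Entrez Gene 98558, chr1:166201385-166238744) encodes Maelstrom, a protein of nuage and nucleus needed for transposon silencing. In the vehicle libraries 12, 26, 30, 27 and 19 counts were found. In the GPI libraries 0, 1, 2, 0 and 0 were found. The highest GPI library was far below the lowest vehicle library. Normalised counts were 23.8 ± 9.40 with vehicle and 0.542 ± 0.837 with GPI (SD, n = 5), a log2 fold change of -5.17 ± 0.66 (SE, adjusted p = 6.53e-05). The 3 counts with GPI against 114 with vehicle leave 2.58% (0.525% to 7.74%), and without mouse 3, which gave 2 of the 3, the log2 fold change was -5.97. The mean level of Mael was higher than that of 1.21% of the tested genes.

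The last 3 members are Tudor domain proteins. Tdrd1 (Entrez Gene 83561, chr19:56826209-56870012) encodes a scaffold that binds MILI through methylated arginines. Its vehicle counts were 55, 40, 70, 93 and 41. Its GPI counts were 33, 12, 13, 15 and 48. The GPI gonad was lower in 4 of 5 mice and higher in mouse 5, and the groups overlapped. Normalised counts were 62.1 ± 24.2 and 25.4 ± 18.5 (SD, n = 5), a log2 fold change of -1.43 ± 0.46 (SE, adjusted p = 0.039). This call depended on single mice: without mouse 2, 3 or 4 the adjusted p was 0.128, 0.156 and 0.167, and over all alternatives it ran from 0.00315 to 0.167.

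Tdrd5 (Entrez Gene 214575, chr1:156255296-156303606) encodes a Tudor and LOTUS domain protein that binds piRNA precursors. It had 28, 45, 46, 34 and 59 counts with vehicle. It had 12, 20, 4, 18 and 7 with GPI. All GPI libraries lay below all vehicle libraries, though 3 of them still held at least 10 counts. The log2 fold change was -1.89 ± 0.42 (SE, adjusted p = 0.00439), from 43.0 ± 10.2 to 12 ± 6.21 normalised counts (SD, n = 5).

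Tdrd9 (Entrez Gene 74691, chr12:111971559-112068854) encodes an RNA helicase with a Tudor domain that works with MIWI2. The vehicle libraries held 7, 4, 1, 2 and 2 counts. The GPI libraries held 4, 1, 7, 3 and 1. The sums were 16 and 16, and the GPI gonad was lower in 3 mice and higher in 2. Tdrd9 did not pass the filter, and without it the log2 fold change was -0.11 (standard error 1.13, edgeR, adjusted p = 0.972). The ratio of the scaled sums was 98.1% with an interval of 45.9% to 210%, which covers counting error only. With a standard error of 1.13 in the fit, differences beyond these bounds could also have gone undetected at this depth. Reads were counted without regard to strand, and Tdrd9 overlaps Rd3l on the other strand, with 0 shared exon bases.

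**Figure D2:**
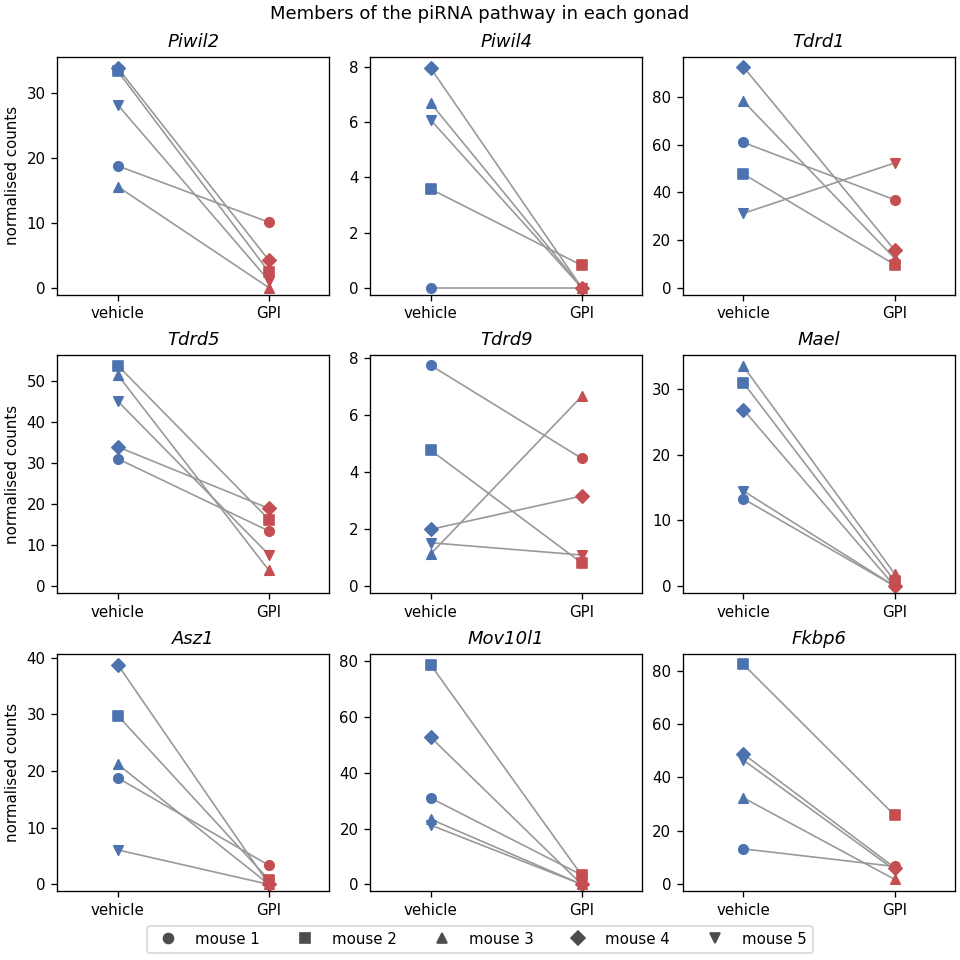
Normalised counts of the 9 members in each gonad; each line joins the vehicle (blue) and GPI (red) gonads of 1 mouse, each symbol is 1 mouse, and the vertical scale differs between panels. The lines fall in 5 of 5 mice for Piwil2, Tdrd5, Mael, Asz1, Mov10l1 and Fkbp6, and rise in 1 mouse for Tdrd1 and in 2 for Tdrd9.

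To set the members side by side, counts scaled to library size (CPM) were divided by the summed length of each gene's exons in kilobases. On this scale the vehicle mean was highest for Fkbp6 (2.07 ± 1.17, SD, n = 5). Then came Mael at 1.12 ± 0.440, Asz1 at 1.07 ± 0.575, Tdrd5 at 0.928 ± 0.220, Tdrd1 at 0.927 ± 0.362 and Mov10l1 at 0.814 ± 0.476. Piwil2 followed at 0.429 ± 0.138, Piwil4 at 0.113 ± 0.0731 and Tdrd9 at 0.0579 ± 0.0474. Neighbours in this order differed by less than the larger of their SDs, except Piwil2 and Piwil4. With GPI the order of mean levels was another and depended on single mice: Fkbp6 at 0.429 ± 0.441, Tdrd1 at 0.379 ± 0.275 and Tdrd5 at 0.259 ± 0.134 came first, and Mael, second with vehicle, was at 0.0254 ± 0.0392. Without mouse 2 the GPI mean of Fkbp6 was 0.236, below Tdrd1 (0.438) and level with Tdrd5 (0.236), and without mouse 5 that of Tdrd1 was 0.279. The highest GPI library was that of mouse 5 for Tdrd1, of mouse 4 for Tdrd5 and of mouse 2 for Fkbp6, so no single library stood high in all 3.

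**Figure D3:**
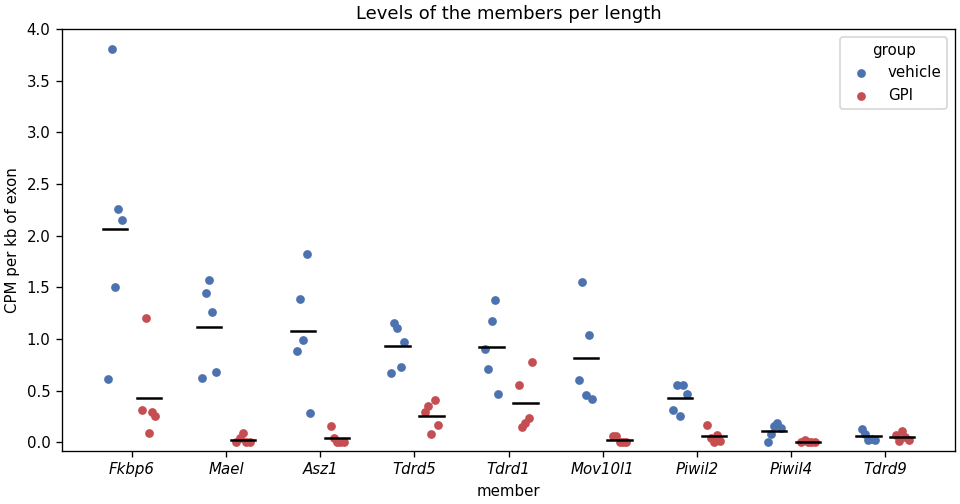
Levels of the 9 members in CPM per kilobase of exon, ordered by the vehicle mean; each point is 1 library and each black bar the mean of 5 libraries. Fkbp6 has the highest vehicle mean (2.07), its GPI mean (0.429) is raised by the library of mouse 2 (1.20), and the GPI points of Mael, Asz1 and Mov10l1 lie at or near 0.

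The members differed in how much was left with GPI. Sorted by the share of the scaled vehicle sum that remained, Mael (2.58%), Mov10l1 (3.51%), Asz1 (3.63%) and Piwil4 (3.93%) came first, then Piwil2 (12.8%), Fkbp6 (22.8%), Tdrd5 (28.2%), Tdrd1 (39.7%) and Tdrd9 (98.1%). The counting intervals of Mael, Mov10l1 and Asz1 ended at 7.74%, 7.36% and 9.58%, below the lower ends for Fkbp6 (16.4%), Tdrd5 (20.9%) and Tdrd1 (31.9%). Such intervals cover counting error only and leave out the spread between mice, so they do not test a difference between members. The intervals of Piwil2, up to 21.4%, and of Piwil4, up to 24.0%, overlapped those of Fkbp6 and Tdrd5, so the members do not fall into 2 separate groups. Without mouse 2, which gave 32 of its 51 GPI counts, Fkbp6 was left at 13.6% (7.95% to 21.9%), and its interval then overlapped those of Mael (up to 9.13%) and Asz1 (up to 11.8%). The largest moves of the other shares by leaving out 1 mouse, taken as ratios, were these. Without mouse 1, Asz1 went to 1.07%, Piwil2 to 6.90% and Mov10l1 to 2.32%. Without mouse 2, Piwil4 went to 0%. Without mouse 3, Mael went to 1.21%, Tdrd9 to 60.9% and Tdrd5 to 34.9%. Without mouse 5, Tdrd1 went to 24.9%. Mov10l1 also moved upwards, to 4.72% without mouse 4. In each of the 5 mice the log2 ratio of GPI over vehicle, with a prior count of 2, was lower for Mov10l1 than for Tdrd5. It was -2.62, -3.95, -3.67, -4.78 and -3.54 for Mov10l1 in mice 1 to 5, and -1.10, -1.61, -3.20, -0.78 and -2.29 for Tdrd5. This pair was chosen after the values were seen, and the difference was not tested. Together, Tdrd1, Tdrd5 and Fkbp6 gave 55.4% of the members' counts with vehicle (731 of 1320) and 82.9% with GPI (233 of 281). Mael, Mov10l1 and Asz1 gave 31.7% (418) and 4.98% (14). These sets were picked by the share left, so their change in weight restates that order. Of the 233 counts, 48 came from Tdrd1 in mouse 5 and 32 from Fkbp6 in mouse 2.

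Summed over the 9 members, normalised counts were 195, 365, 264, 338 and 200 in the vehicle libraries of mice 1 to 5. In the GPI libraries they were 78.3, 60.8, 26.6, 48.4 and 67.6. The groups did not overlap, and the GPI mean of 56.3 ± 19.8 was 20.7% of the vehicle mean of 272 ± 77.7 (SD, n = 5). The mice differed: 40.2% of the vehicle sum was left in mouse 1 and 33.7% in mouse 5, against 16.7%, 10.1% and 14.3% in mice 2, 3 and 4. In mouse 5 Tdrd1 gave 52.3 of the 67.6 normalised counts. The number of members without a count was 1 in the vehicle library of mouse 1 and 0 in the other vehicle libraries, and 2, 0, 4, 4 and 4 in the GPI libraries. Without the filter the median log2 fold change was -3.10 over all 9 members and -0.01 over all genes. Over the 6 tested members it was -2.72, which the filter partly set, since 3 of them passed it through the vehicle libraries alone.

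Germ cell markers moved with the members. Of a list of 10, 6 were tested, 5 were called lower (edgeR) and 0 higher, with a median log2 fold change of -3.67. For the tested members it was -2.72. Without the filter the order was the other way, with a median of -2.85 over the 10 markers and -3.10 over the 9 members. The most abundant gene of the list by counts was Dazl with vehicle and Ddx4 with GPI. Dazl had a log2 fold change of -4.62 ± 0.34 (SE, adjusted p = 5.60e-07). Dppa3, a chromatin protein of primordial germ cells, had one of -5.20 (standard error 0.36, adjusted p = 3.00e-07), and Sall4, a transcription factor of germ cells that passed the filter through the vehicle libraries alone, one of -4.89. Utf1, a chromatin factor of germ cells, had -2.39, and Dnd1, an RNA-binding protein, was not called (-0.50, adjusted p = 0.485). Summed normalised counts of the list were 1038, 2233, 1331, 1855 and 688 with vehicle and 171, 136, 52.3, 60 and 127 with GPI, so that 7.66% was left. No marker was at 0 in all 10 libraries, and without mouse 1 the log2 fold change of Dppa3 was -5.89. Pou5f1, the pluripotency factor, was at 0 in the GPI libraries of mice 3, 4 and 5 and had 3 to 28 counts with vehicle. In the GPI libraries Tfap2c was at 0 in mice 3 and 5, Nanos2 in mice 4 and 5 and Nanos3 in mouse 3. Nanos2 was also at 0 in the vehicle libraries of mice 3, 4 and 5. For the members and the markers alike, the vehicle libraries of mice 2 and 4 had the highest sums.

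Per 100 counts of germ cell markers, the members had 18.8, 16.4, 19.8, 18.2 and 29.1 counts in the vehicle libraries. In the GPI libraries they had 45.8, 44.6, 50.9, 80.7 and 53.0. The ratio was thus higher in every GPI library than in every vehicle library. It depends on which genes stand in each sum: with vehicle the markers' sum is mostly Dazl and Dppa3, which were left at 4.68% and 2.92%, and with GPI the members' sum is mostly Tdrd1, Tdrd5 and Fkbp6. Ddx4, which is a germ cell marker and a piRNA pathway gene at once, was left at 15.9%.

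Markers of other cell types also differed. All 5 of 5 endothelial markers were called lower (edgeR), and their summed normalised counts were 6293, 6768, 5999, 6984 and 6164 with vehicle and 742, 914, 613, 506 and 631 with GPI, or 10.6% left. Cdh5, the cadherin of blood vessels, was the most abundant with vehicle and Kdr with GPI, and none of the 5 was at 0 in any library. The erythroid genes Hbb-bt (log2 fold change -3.84, adjusted p = 1.21e-06), Hba-a1 (-1.59, adjusted p = 0.00333) and Alas2 (-0.75, adjusted p = 0.00412) were lower too, in 5 of 5 mice each. Of 4 macrophage genes 3 were lower, with summed normalised counts of 351, 208, 220, 243 and 204 with vehicle and 126, 95.7, 88.4, 69.4 and 53.4 with GPI. Csf1r, the receptor of a macrophage growth factor, was their most abundant gene with vehicle, and Adgre1, which was not called, with GPI. The complement gene C1qa, one of the 3, had 0 to 3 counts with GPI and passed the filter through the vehicle libraries alone.

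Markers of Sertoli and fetal Leydig cells were mostly higher with GPI, and those of pre-granulosa cells were not. Of 7 Sertoli cell genes 5 were called higher and 0 lower, with summed normalised counts of 2114, 3260, 2201, 2711 and 2984 with vehicle and 2686, 4041, 3982, 4822 and 3852 with GPI, most of all from Sox9. Amh (log2 fold change 0.08) and Cst9 (-0.19) were not called. Of 5 fetal Leydig cell genes 4 were higher, with sums of 1280, 2700, 3980, 1991 and 5303 with vehicle and 9634, 10119, 15749, 18089 and 12928 with GPI. Hsd3b1, a steroidogenic enzyme, was the most abundant with vehicle, and Cyp11a1 of the same list with GPI. Insl3, a Leydig cell hormone, had 0 to 2 counts with vehicle and 0 to 7 with GPI. Of 4 pre-granulosa genes 1, Wnt4, the most abundant, was lower, with sums of 1356, 1331, 1150, 1115 and 945 with vehicle and 942, 687, 692, 509 and 781 with GPI. The mesonephric list of 4 had 1 tested gene, Pax8, the most abundant, which was not called. Its sums were 557, 119, 270, 137 and 59.4 with vehicle and 177, 226, 114, 109 and 94.8 with GPI. The part of these cell types, and of the lower germ cell markers, in the members' difference was not tested.

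**Figure D4:**
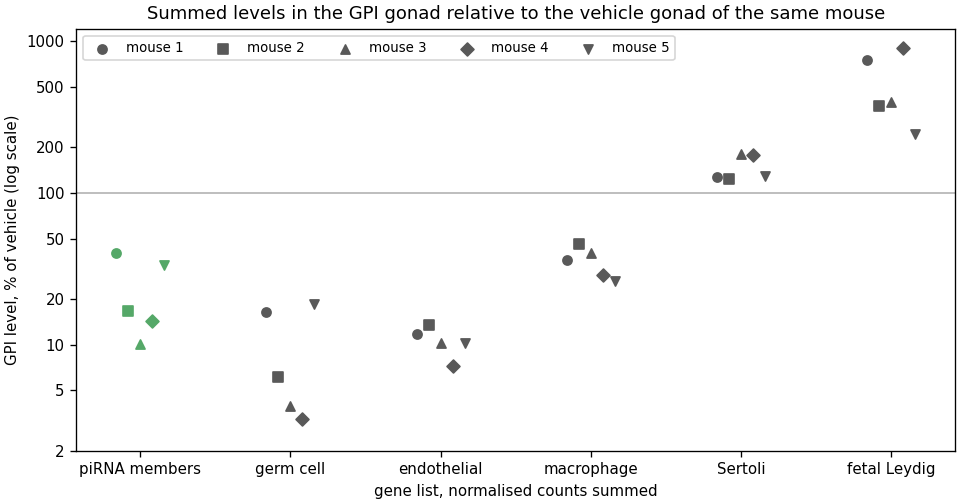
Summed normalised counts of the GPI gonad as a percentage of the vehicle gonad of the same mouse, on a log scale, for the 9 piRNA members and 5 lists of cell type markers; each symbol is 1 mouse and the grey line marks equal levels. The members lie between 10.1% and 40.2%, the germ cell markers between 3.23% and 18.5%, and the endothelial markers between 7.25% and 13.5%.

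The other genes of the pathway did not all go the same way. Of a list of 21 further piRNA genes, 20 were matched in the table and 12 were tested, of which 4 were called lower, 2 higher and 6 in neither direction (edgeR). Of the 4, Stk31 and Tex19.1 reached 10 counts in no GPI library, so they passed the filter through the vehicle libraries alone and had to differ. The median log2 fold change was -0.64. Lower were Ddx4, the helicase of germ granules (-2.72, adjusted p = 0.000515), Stk31, a Tudor domain kinase-like protein (-5.34, adjusted p = 3.12e-06), and Tex19.1, a protein that restrains retrotransposons in germ cells (-4.78, adjusted p = 8.69e-06). Rnf17, a RING finger and Tudor domain protein, was lower by less (-0.84, adjusted p = 0.00831), and without mouse 3 its adjusted p was 0.052, the largest over its alternatives, of which the smallest was 0.00105. Without mouse 5 the log2 fold change of Ddx4 was -3.36. Stk31 had 57 to 105 counts with vehicle and 0 to 8 with GPI (log2 fold change -6.10 without mouse 2), and Tex19.1 had 20 to 71 and 0 to 5. For Rnf17 the groups overlapped, with 74 to 207 and 60 to 167 counts.

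Both genes called higher had more counts on average than the other genes of the list. Mybl1, the transcription factor that drives piRNA precursor genes in meiotic germ cells, had 666, 629, 527, 669 and 753 counts with vehicle. With GPI it had 780, 1504, 1484, 1420 and 1098. All GPI libraries lay above all vehicle libraries, also after normalisation, with a log2 fold change of 0.89 ± 0.13 (SE, edgeR, adjusted p = 0.000177). Tex15, a nuclear protein required for transposon methylation, had 272, 288, 269, 364 and 295 counts with vehicle and 369, 558, 500, 409 and 445 with GPI. Its log2 fold change was 0.57 (standard error 0.13, adjusted p = 0.00425). Mybl1 was the most abundant gene of the list, averaging 663 normalised counts in vehicle libraries and 1239 in GPI libraries. Tex15 averaged 307 and 451. The sum over the whole list averaged 1811 and 2023, so the GPI mean was 112% of the vehicle mean. This difference was smaller than that of Mybl1 alone. The list without Mybl1 and Tex15 therefore had a lower sum with GPI.

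The 6 not called were Tdrd7 (-0.62), Pld6 (-0.69), Gpat2 (-0.65), Btbd18 (-0.47), Tdrkh (-0.45) and Pnldc1 (0.01). Pld6 and Tdrkh encode mitochondrial proteins of piRNA processing, an endonuclease and a Tudor protein, and Pnldc1 the enzyme that trims piRNA ends. For these 6 the groups overlapped, and their counts ran between 4 and 175. Tdrd7, a Tudor domain protein of germ granules, stood closest to the threshold, with an adjusted p of 0.0528, and it was called lower without the low-count filter (adjusted p = 0.0232), with DESeq2 (0.0387), at total counts alone (0.0391), with at least 10 counts in every library (0.0488) and without mouse 1 (0.0036). Over all its alternatives the adjusted p ran from 0.0036 to 0.198. Another 8 genes did not pass the filter. In the fit without it Tdrd12 (7 to 27 counts with vehicle, 0 to 3 with GPI, adjusted p = 0.00291) and Morc1 (1 to 17 and 0 to 1, adjusted p = 0.0303) were lower as well. Piwil1, the PIWI gene of later spermatogenesis, had 0 or 1 count in every library, and Dnmt3l, a cofactor of DNA methylation, had 3 counts in 1 vehicle library and none elsewhere.

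A list of widely expressed genes, made of factors of the pathway and relatives of members, had log2 fold changes between -0.20 and 0.35. Of 8 such genes 8 were tested, 0 were lower and 3 higher, and the median log2 fold change was 0.10. Of all 13941 genes tested, 1544 were called higher. Mov10, the widely expressed relative of Mov10l1, had a log2 fold change of 0.31 (edgeR, adjusted p = 0.0311). Fkbp4, a relative of Fkbp6, had one of 0.35 (adjusted p = 0.00594), and Fkbp5 one of 0.31 (adjusted p = 0.0337). Mov10 and Fkbp5 were no longer called in 6 alternatives each, with adjusted p of up to 0.145 and 0.156. Prmt5, which methylates the arginines that Tudor proteins bind, had a log2 fold change of -0.15 (adjusted p = 0.409).

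The miRNA and siRNA pathways served as a second comparison, since they use Argonaute proteins related to PIWI proteins in all cells. Of 10 genes 10 were tested, 0 were lower and 1 was higher, with a median of 0.07. The gene called was Xpo5, which exports miRNA precursors from the nucleus (0.30, edgeR, adjusted p = 0.0221), and the call was lost without mouse 1, 3 or 4 and at total counts alone (adjusted p from 0.0116 to 0.138 over all alternatives). Ago2, the slicing Argonaute and the most abundant of the list, had 2593 mean normalised counts with vehicle and 2647 with GPI, a log2 fold change of 0.02 (adjusted p = 0.863). Dicer1, which cuts the precursors, had one of 0.11 (adjusted p = 0.281). At total counts alone, 1 gene of each of these lists was called lower, Hsp90aa1 (-0.21) and Ago1 (-0.29), and the sign of Ago2 turned (-0.03).

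**Figure D5:**
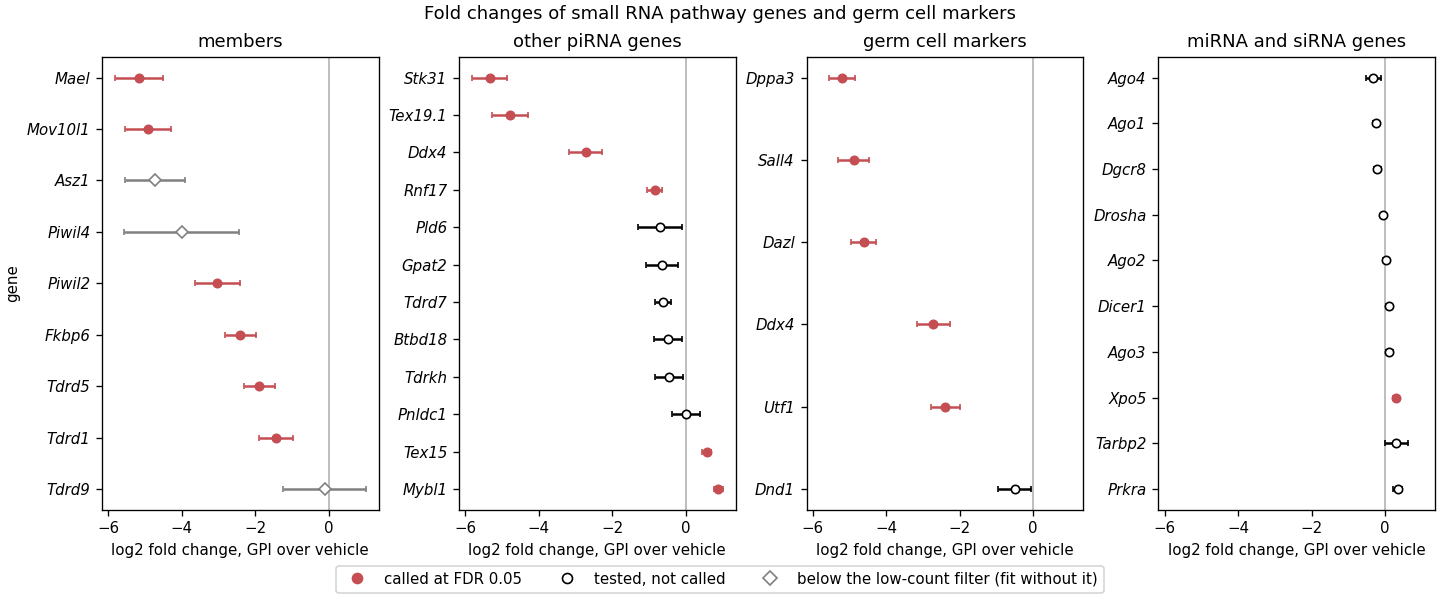
Log2 fold changes of GPI over vehicle with standard errors for the 9 members, the tested genes of the other piRNA list, the tested germ cell markers and the miRNA and siRNA genes; filled red points were called at an FDR of 0.05, open circles were not, and grey diamonds did not pass the low-count filter and come from the fit without it. Members run from -5.17 (Mael) to -0.11 (Tdrd9), other piRNA genes from -5.34 (Stk31) to 0.89 (Mybl1), and miRNA and siRNA genes from -0.32 to 0.35.

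The genes whose pattern over the 10 libraries was most like the members' were Kdr, Gng11, Smc1b, Necab1 and Fam43a. Likeness was the root mean square difference, over the 10 libraries, between a gene's centred log2 CPM and the mean centred profile of the 6 tested members, among 12910 genes that averaged 20 counts or more per library. It was 0.28 for Kdr, 0.29 for Gng11 and Smc1b, and 0.30 for Necab1 and Fam43a. Kdr, also on the endothelial list, encodes a receptor of blood vessel cells, Gng11 a G protein subunit and Smc1b a cohesin subunit of meiosis. Their log2 fold changes were -2.44, -2.63, -2.35, -2.47 and -2.46, in the order named. The members' mean profile was 0.74, 1.75, 1.21, 1.55 and 0.97 in the vehicle libraries and -0.75, -0.88, -1.93, -1.27 and -1.39 in the GPI libraries, on the log2 scale. The low-count filter partly set this profile, since Piwil2, Mael and Mov10l1 passed it through the vehicle libraries alone. The prior count of 2 set it too, since it draws ratios of low counts towards 0. Mael, at -5.17 in the fit, had ratios between -2.93 and -3.85 with this prior. Piwil2 and Mael themselves do not average 20 counts per library, so the genes compared were more abundant than these members.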

How the data were processed

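RNA of 10 testes, 5 pairs, was sequenced as read pairs. The authors aligned them to mm10 by STAR and ran featureCounts (Subread 1.5.0-p1), unstranded, on the NCBI RefSeq Curated gene models; the raw counts were used as deposited. No sample columns other than these 10 were present (0 others). Samples were grouped and paired by their labels, which name the mouse.

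The filterByExpr function of edgeR (at least 10 counts, total of at least 15) kept 13941 of 24470 genes, which were tested by edgeR's quasi-likelihood test with mouse and treatment in the model, TMM scaling and Benjamini-Hochberg adjustment over all genes tested (FDR 0.05). A standard error is the size of the log2 fold change over the root of F. Low members are given by raw counts and by a fit on all 20287 genes with at least 1 count. Ratios of summed counts have exact conditional binomial intervals (95%). For normalised counts, each library was scaled to the mean effective size of 12320317; TMM factors ran from 0.951 to 1.039. Exon lengths are unions of exons in GENCODE M21, matched by Entrez identifier.

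The members and lists were chosen with earlier results of these data known. The result of 1 marker gene is not reported here. Genes named are the 9 members, genes of the lists, and the 5 tested non-members closest in profile to the members (at least 20 counts on average, prior count 2). Spocd1 of the piRNA list was not matched. Gonads of the same mouse come from the same animal; deviations from the treatment mean correlated between -0.0398 and 0.155 within mice (mean 0.0600) and by -0.0147 on average between mice. Libraries of the same group differed by more than sampling noise (chi-square over degrees of freedom 6.42 to 27.81).

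Alternatives were limma-voom or DESeq2 in place of edgeR, scaling by total counts only or by DESeq2 size factors, no replicate block, a stricter filter (every library with at least 10 counts) or none, and each mouse left out. For Asz1, Piwil4 and Tdrd9, alternatives to the fit without the filter were added after seeing the data, and so was leaving out each mouse for the shares left and the levels per length of the members. The procedure was tested on simulated data. Versions were edgeR 4.0.16, DESeq2 1.42.0, limma 3.58.1 and R 4.3.3, and matplotlib 3.10.9, pandas 2.3.3, numpy 2.4.6 and Python 3.11.15.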

Additional observations from a re-analysis of the deposited data

Results flagged for a closer look

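Within each treatment, the highest and the lowest library of each member and of the members' and germ cell markers' sums were compared with the other 4 by Dixon's ratio of gap to range (critical value 0.71 for 5 libraries), in 22 groups; chance flags about 1 in 20. Fkbp6 in the GPI library of mouse 2 had 25.9 normalised counts, and the other GPI libraries had 1.90 to 6.72; the vehicle library of mouse 2 was also the highest of its group, at 82.3. Asz1 in the GPI library of mouse 1 had 3.36 normalised counts, from 3 reads, against at most 0.811 in the others. Piwil4 in the GPI library of mouse 2 had 0.811 normalised counts, from 1 read, against 0 in the others. The values of Asz1 and Piwil4 rest on so few reads that a single library cannot be said to stand apart.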

How the results depend on the processing

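Mael, Mov10l1, Piwil2, Tdrd5 and Fkbp6 were called lower under every alternative that kept them in the test. Mael, Mov10l1 and Piwil2 passed the low-count filter through the vehicle libraries alone and had to differ. No support is drawn from their calls under that filter or from the count of members that includes them. The count of members called lower was 6 with DESeq2, limma-voom, DESeq2 size factors and total counts only, and also with no replicate block, where 3108 genes were called in all and the members' median log2 fold change was -2.54. Leaving out each mouse in turn it was 5 to 7, with Tdrd1 lost without mouse 2, 3 or 4 and Asz1 gained without mouse 5. With at least 10 counts in every library, 1 member, Tdrd1, was left to test and was called lower, so the median was -1.41, and 1 germ cell marker and 1 macrophage gene were called lower; this filter removes genes that fell to near 0. With no low-count filter, 7 of the other piRNA genes were called lower. With total counts only, 1 widely expressed piRNA gene and 1 miRNA or siRNA gene were called lower, and the cause was not tested. Signs turned in 4 genes near 0. Pnldc1 was at -0.02 with limma-voom, -0.05 with no replicate block and -0.04 with total counts only, and between -0.32 and 0.25 without single mice. Ago2 was at -0.03 with total counts only and between -0.03 and 0.08 without single mice, Drosha between -0.08 and 0.03, and Tdrd9, without the filter, between -0.72 and 0.40. Of the genes followed singly through the alternatives, Mov10, Fkbp5, Prkra and Piwil4 changed call when the replicate block was left out; other named genes were not followed singly.

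Of the values of single genes under alternatives, 461 kept direction and side of the threshold, 20 lost the call, 11 gained it and 13 changed sign. Depth limits Piwil4 and Tdrd9 most: 3 counts in a library, the limit that a count of 0 allows, equal 2.29 to 3.58 normalised counts.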

Other observations

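Nanos2, a gene of male germ cell fate, had 23 counts in the vehicle library of mouse 2 and 0 or 1 in the other vehicle libraries, and 1, 1, 2, 0 and 0 with GPI. Mouse 2 also had the highest vehicle values of the members' sum (365) and of Fkbp6 (82.3 normalised counts). Tdrd6, a Tudor domain gene of later germ cells below the low-count filter, had 2, 0, 0, 4 and 5 counts with vehicle and 10, 6, 4, 10 and 3 with GPI (without the filter, edgeR, adjusted p = 0.28). Exd1, a partner of Tdrd12, had 3 to 7 counts in both groups.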
